A study of Mus musculus with 10 samples.

Results

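The 10 genes described here are the ligands and receptors of the VEGF and angiopoietin systems: the ligands *Vegfa*, *Vegfb*, *Vegfc* and *Pgf*, the receptors *Kdr*, *Flt1* and *Flt4*, the co-receptor *Nrp1*, and the angiopoietins *Angpt1* and *Angpt2*. They were chosen by name, as 10 of the 45706 genes counted, and all 10 were among the 14550 genes with enough counts to be tested. RNA was sequenced from 10 whole melanomas taken 4 days after implantation into C57BL/6 hosts that were 8 weeks old. *Ptgs+/+* tumors (4 libraries) grew from parental cells of a *Braf*-mutant melanoma line. *Ptgs-/-* tumors (3 libraries) grew from derivatives of these cells in which *Ptgs1* and *Ptgs2*, the genes of the cyclooxygenases that start prostaglandin synthesis, had been targeted with CRISPR/Cas9. A further 3 libraries came from *Ptgs-/-* tumors in mice depleted of NK cells, called NK-depleted *Ptgs-/-* tumors below. These mice received 200 µg of anti-NK1.1 (clone PK136) and 30 µg of anti-asialo GM1 per mouse on days 0 and 2. Only the tumor cells were targeted, so host cells in every tumor kept both genes. The labels number separate tumors within a group and say no more of their origin, so the p-values measure the spread between these tumors.

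VEGF ligands bind receptor tyrosine kinases on endothelial cells: VEGF-A signals mainly through VEGFR2, the product of *Kdr*, while VEGFR1, the product of *Flt1*, binds VEGF-A, VEGF-B and PlGF and also acts as a decoy. VEGF-C acts on VEGFR3, the product of *Flt4*, and is best known for driving growth of lymphatic vessels. Angiopoietin-1 activates the endothelial receptor TIE2 (*Tek*) and stabilises vessels, whereas angiopoietin-2, released by endothelial cells themselves, can oppose it. Prostaglandin E2 and low oxygen are both known inducers of *Vegfa* in tumors.

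The sequences upstream of these genes show what the annotation places there. RefSeq (GRCm38.p6) start sites were found for 8 of the 10 genes, with 10 windows of 250 bases in all, and no window was used for *Angpt1* or *Angpt2*. A pair of short words was searched on both strands: the core of the hypoxia response element, ACGTG or GCGTG, and the cAMP response element TGACGTCA, since prostaglandin E2 receptors can raise cAMP. Shown are the windows of *Vegfa* (chr17:46032378-46032627, minus strand) and *Vegfc* (chr8:54077282-54077531, plus strand), the VEGF ligands whose mean level was higher in *Ptgs-/-* than in *Ptgs+/+* tumors, and of *Flt1* (chr5:147726012-147726261, minus strand), which held both words. Each is written 5′ to 3′ and ends at the base before the start, and capitals mark the matches.
Vegfa: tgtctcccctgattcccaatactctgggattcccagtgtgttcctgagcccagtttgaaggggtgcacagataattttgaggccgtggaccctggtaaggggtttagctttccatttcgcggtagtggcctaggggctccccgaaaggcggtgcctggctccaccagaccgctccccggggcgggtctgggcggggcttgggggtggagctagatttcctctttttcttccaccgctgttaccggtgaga
Vegfc: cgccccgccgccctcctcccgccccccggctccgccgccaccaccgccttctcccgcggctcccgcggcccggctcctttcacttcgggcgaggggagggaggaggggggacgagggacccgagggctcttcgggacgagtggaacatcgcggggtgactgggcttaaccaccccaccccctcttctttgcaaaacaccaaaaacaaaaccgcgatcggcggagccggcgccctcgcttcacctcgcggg
Flt1: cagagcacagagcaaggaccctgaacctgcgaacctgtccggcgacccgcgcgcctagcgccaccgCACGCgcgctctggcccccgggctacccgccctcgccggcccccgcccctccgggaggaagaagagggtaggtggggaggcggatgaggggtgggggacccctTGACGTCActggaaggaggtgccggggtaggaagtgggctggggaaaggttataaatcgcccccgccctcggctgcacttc
The *Flt1* window held 1 cAMP response element, 81 bases before the start, and the same word occurred in 1.55% of 32851 windows of this length. It also held 1 hypoxia core, on the reverse strand, as the capitals CACGC show. Hypoxia cores occurred in 38.6% of all windows. Among the other members, *Vegfb* and *Kdr* held 2 each, and *Pgf* and *Nrp1* 1 each, in the first window. The *Vegfa* window above and the windows of *Vegfc* and *Flt4* held neither word, while a second *Vegfa* start held 2 hypoxia cores. These matches describe letters in a short window and no binding was measured.

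The libraries held between 8150556 and 12839174 counts, so that a count of 3 corresponds to 0.234 to 0.368 CPM (counts per 1000000 counts of a library), a floor that covers counting error only. Levels are given in this unit, and gene positions are those of GENCODE M21 on GRCm38. The libraries carry 1 read per transcript end, and these counts do not scale with transcript length. *Ptgs1* and *Ptgs2* checked the labels: *Ptgs2* averaged 253.5 CPM in *Ptgs+/+*, 43.0 CPM in *Ptgs-/-* and 44.8 CPM in NK-depleted *Ptgs-/-* tumors, and *Ptgs1* 152.0, 94.0 and 96.5 CPM. *Ncr1*, an NK cell receptor, had 0 counts in all NK-depleted libraries. The pigment genes *Tyr*, *Tyrp1*, *Mlana*, *Dct* and *Pmel* reached at most 0.738 CPM in any library, and 5 of 10 melanocytic genes, *Mitf* among them, were expressed well enough to be tested. Within groups, *Ptgs+/+* replicate 3 differed most from its own group, with a chi-square per degree of freedom of 31.8 to 33.2 against 8.98 to 20.9 among the other 3. *Ptgs-/-* replicate 1 had the lowest level of 17 of 18 endothelial genes and of all 6 adipocyte genes among the 10 libraries. The study's stricter call also asks for a log2 fold change of 1.5 or more in either direction.

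Ordered by their mean over all 10 libraries, *Nrp1* (164.2 CPM), *Flt1* (136.0 CPM) and *Vegfa* (115.0 CPM) led, followed by *Kdr* (69.6 CPM) and *Vegfb* (47.5 CPM). *Angpt2* (14.2 CPM), *Pgf* (11.7 CPM), *Angpt1* (11.2 CPM), *Vegfc* (6.13 CPM) and *Flt4* (3.41 CPM) formed a lower tier. Each gene overlapped its neighbours in this order across libraries, with 1 exception: all 10 values of *Vegfb*, between 40.8 and 56.3 CPM, lay above all 10 of *Angpt2*, between 8.10 and 18 CPM.

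**Figure D1:**
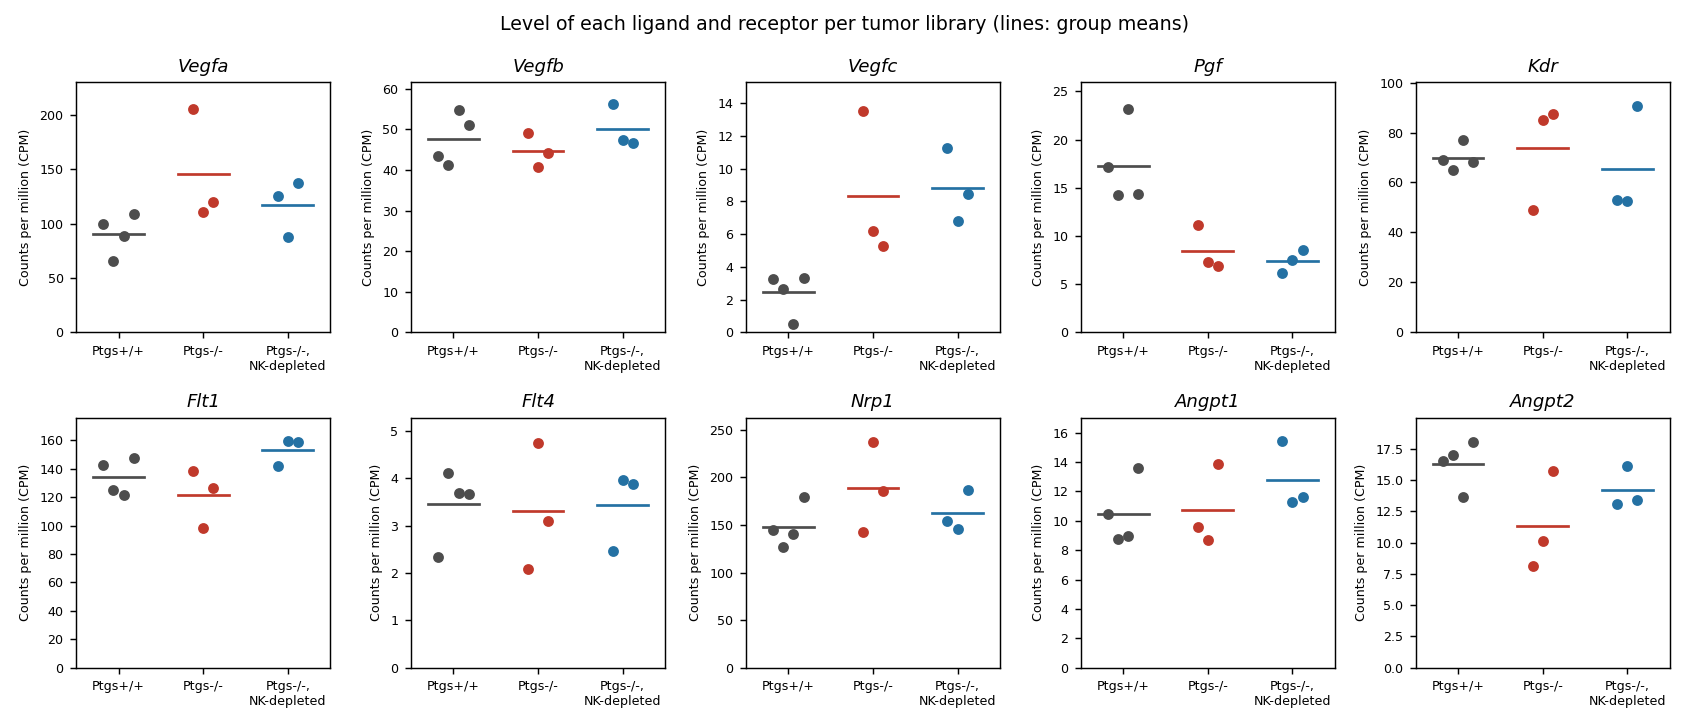
CPM of each of the 10 genes (vertical axes, linear, from 0) in each tumor library (points) of the 3 groups, with group means as lines. *Vegfc* is higher and *Pgf* lower in every *Ptgs-/-* library, of either kind of host, than in all 4 *Ptgs+/+* libraries, whereas *Kdr*, *Flt4* and *Angpt1* overlap throughout.

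The first comparison asked how tumors of cyclooxygenase-deficient cells differ early on from those of parental cells. In *Ptgs-/-* tumors *Vegfc* rose and *Pgf* fell, and the other 8 genes did not pass. That is 2 of 10 genes at an adjusted p (Benjamini-Hochberg, edgeR's quasi-likelihood test) at or under 0.05, against 23.1% of all genes tested. *Vegfc* alone met the stricter call, against 4.15% of all genes. The median log2 fold change of the 10 was -0.06, beside -0.01 over all genes tested.

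*Vegfc* (chr8:54077606-54187096), the lymphatic growth factor, had 3.27, 2.68, 0.527 and 3.35 CPM in the 4 *Ptgs+/+* libraries and 13.5, 6.21 and 5.29 CPM in the 3 *Ptgs-/-* libraries. In NK-depleted *Ptgs-/-* tumors it had 11.2, 6.83 and 8.44 CPM. All 6 *Ptgs-/-* libraries therefore lay above all 4 *Ptgs+/+* libraries, and the lowest value rests on 6 counts. The log2 fold change of *Ptgs-/-* against *Ptgs+/+* was 1.69 (SE 0.47, 95% interval 0.66 to 2.73), about 3.24-fold, with an adjusted p of 0.0241 by edgeR. It was 1.16 (adjusted p = 0.10) when *Ptgs-/-* replicate 1 was left out, and the adjusted p was 0.0520 when *Ptgs+/+* replicate 2 was. Leaving out *Ptgs-/-* replicate 1 and *Ptgs+/+* replicate 3 together, an alternative chosen after seeing the data, gave 0.84 (adjusted p = 0.0320).

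*Pgf* (chr12:85166635-85177790) encodes placental growth factor, a ligand of VEGFR1 that does not bind VEGFR2. It had 17.2, 14.2, 23.2 and 14.3 CPM in *Ptgs+/+* tumors, 11.2, 7.34 and 6.93 CPM in *Ptgs-/-* tumors and 6.21, 7.47 and 8.54 CPM in NK-depleted *Ptgs-/-* tumors. The *Ptgs+/+* libraries were all above the other 6. The log2 fold change against *Ptgs+/+* was -1.09 (SE 0.23, 95% interval -1.60 to -0.58, adjusted p = 0.00652 by edgeR). It kept this direction and passed under all alternatives tried, with values from -1.34 to -0.91.

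*Vegfa* (chr17:46016993-46032369), the principal ligand of blood vessel growth, had 99.7, 65.3, 88.9 and 108.5 CPM in *Ptgs+/+* tumors and 205.9, 111.0 and 119.7 CPM in *Ptgs-/-* tumors. No *Ptgs-/-* library fell within the *Ptgs+/+* range, although the lowest, 111.0 CPM, was close to the highest *Ptgs+/+* value. The log2 fold change was 0.63 (SE 0.23, 95% interval 0.12 to 1.14), and the adjusted p of 0.0733 by edgeR missed the threshold. DESeq2 gave an adjusted p of 0.0372. The estimate was 0.28 without *Ptgs-/-* replicate 1, the library at 205.9 CPM. In NK-depleted *Ptgs-/-* tumors *Vegfa* had 125.3, 87.7 and 137.6 CPM, which overlapped both other groups.

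*Vegfb* (chr19:6982473-6987651), a VEGFR1 ligand with a limited part in vessel growth, ranged from 41.2 to 54.8 CPM in *Ptgs+/+*, from 40.8 to 49.2 CPM in *Ptgs-/-* and from 46.6 to 56.3 CPM in NK-depleted *Ptgs-/-* tumors. Its log2 fold change between *Ptgs-/-* and *Ptgs+/+* tumors was -0.15 (95% interval -0.43 to 0.13, adjusted p = 0.429 by edgeR), the narrowest interval among the ligands.

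**Figure D2:**
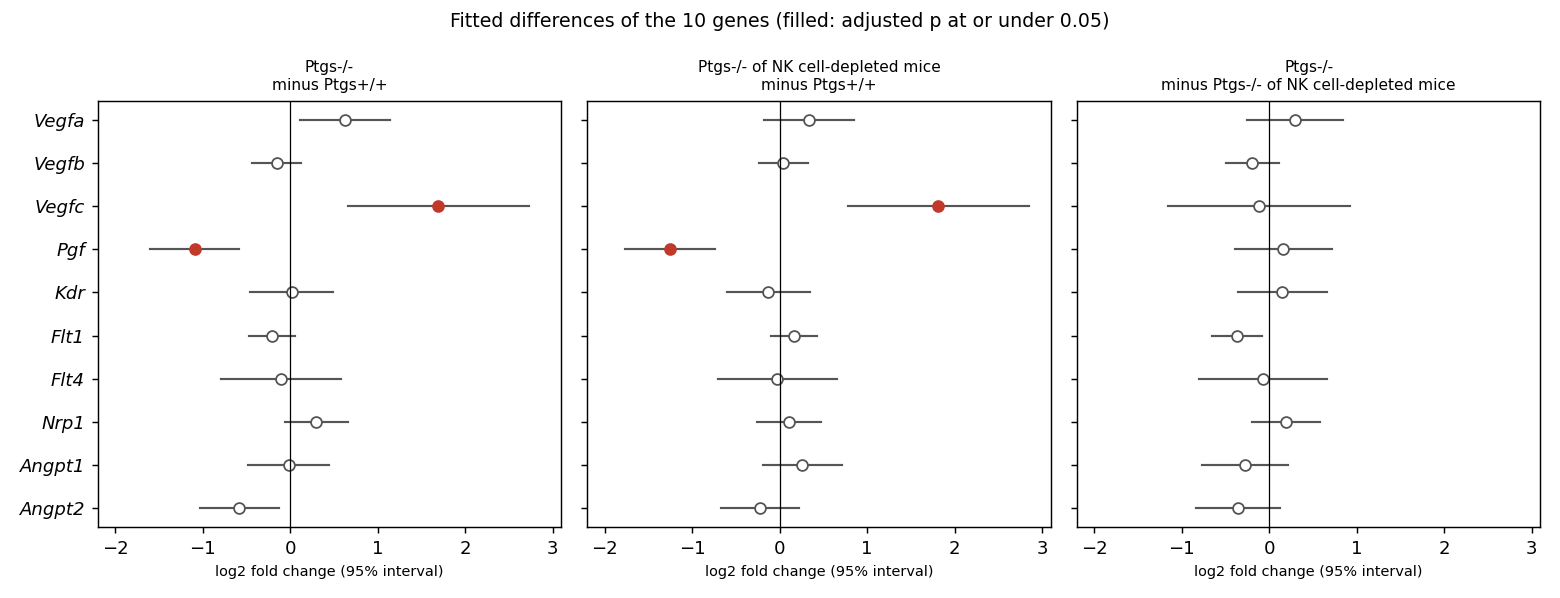
Log2 fold change of each gene (points, horizontal axis) with its 95% interval (lines) in the 3 comparisons, filled where the adjusted p of edgeR's quasi-likelihood test was at or under 0.05. The filled points are *Vegfc*, at 1.69 and 1.81, and *Pgf*, at -1.09 and -1.25, in both comparisons with *Ptgs+/+* tumors, which share their control libraries.

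None of the receptors passed in the fit of all libraries. *Kdr* (chr5:75932827-75978458), the main signalling receptor for VEGF-A, had 69.0, 64.9, 77.2 and 68.0 CPM in *Ptgs+/+* tumors and 49.0, 84.8 and 87.3 CPM in *Ptgs-/-* tumors. The *Ptgs-/-* libraries lay on both sides of the *Ptgs+/+* range, and the log2 fold change was 0.02 (95% interval -0.46 to 0.49, adjusted p = 0.961 by edgeR). *Kdr* had 53.1, 52.7 and 90.6 CPM in NK-depleted *Ptgs-/-* tumors, with the same wide spread.

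*Flt1* (chr5:147561604-147726011) had 142.8, 124.8, 121.8 and 147.2 CPM in *Ptgs+/+* tumors and 138.6, 98.3 and 126.5 CPM in *Ptgs-/-* tumors, with overlap and a log2 fold change of -0.21 (95% interval -0.47 to 0.06, adjusted p = 0.251 by edgeR). Leaving out *Ptgs-/-* replicate 1 and *Ptgs+/+* replicate 3 together, the alternative chosen after seeing the data, gave -0.35 (adjusted p = 0.0478 by edgeR). This was the only 1 of 21 alternatives in which *Flt1* passed here. *Nrp1* (chr8:128358604-128503363), a co-receptor that also binds semaphorins and is carried by several cell types, had 144.7, 126.4, 140.1 and 179.0 CPM in *Ptgs+/+* and 142.4, 237.6 and 185.7 CPM in *Ptgs-/-* tumors. Its log2 fold change was 0.30 (95% interval -0.06 to 0.66, adjusted p = 0.222 by edgeR). *Flt4* (chr11:49609263-49652739), the VEGF-C receptor of lymphatic endothelium, stayed between 2.09 and 4.76 CPM in all 10 libraries, from 17 to 46 counts each, and its log2 fold change of -0.10 had a 95% interval of -0.79 to 0.59, so that a change of the size seen for *Vegfc* lies outside it.

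*Angpt1* (chr15:42424723-42676977) had 10.4, 8.76, 8.95 and 13.6 CPM in *Ptgs+/+* and 9.57, 8.69 and 13.9 CPM in *Ptgs-/-* tumors, a log2 fold change of -0.02 (95% interval -0.48 to 0.44). *Angpt2* (chr8:18690263-18741562) had 16.5, 17.0, 13.6 and 18 CPM in *Ptgs+/+* and 8.10, 10.1 and 15.7 CPM in *Ptgs-/-* tumors. All but 1 of the *Ptgs-/-* libraries lay below every *Ptgs+/+* library. The log2 fold change of *Angpt2* was -0.58 (SE 0.21, 95% interval -1.03 to -0.13), and its adjusted p of 0.0629 by edgeR was just short of the threshold. It passed in 6 of 21 alternatives, among them DESeq2 (0.0474) and a fit with the experiment code of the sample titles as a term (0.0273). The ratio of *Angpt2* to *Angpt1* counts, taken within each library, was 1.58, 1.94, 1.52 and 1.32 in *Ptgs+/+* and 0.847, 1.17 and 1.13 in *Ptgs-/-* tumors, lower in all 3. The mean log2 ratio differed by -0.60, with an exact two-sided permutation p of 0.057, the smallest that 3 against 4 libraries can give, and an adjusted p of 0.143 over 15 ratio tests.

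The sample titles carry 2 experiment codes, and the second holds 1 *Ptgs+/+* library, 1 *Ptgs-/-* library and none from NK-depleted tumors. Within the first code alone, the log2 fold change of *Ptgs-/-* against *Ptgs+/+* was 2.15 for *Vegfc* (adjusted p = 0.0332), -1.0 for *Pgf* (adjusted p = 0.0361), 0.88 for *Vegfa* (adjusted p = 0.0603) and -0.80 for *Angpt2* (adjusted p = 0.0294), all by edgeR.

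Of 18 genes that mark endothelial cells, receptors left aside, 4 fell in *Ptgs-/-* against *Ptgs+/+* tumors (*Pecam1*, *Cdh5*, *Esam* and *Mmrn2*), none rose and 14 did not pass. This share is close to the 23.1% of all genes tested that passed here. The median log2 fold change was -0.77 in this list, beside -0.01 over all genes tested. The summed level of the 18 endothelial genes was 711.1 to 782.8 CPM in *Ptgs+/+*, 259.7 to 624.8 CPM in *Ptgs-/-* and 466.5 to 658.5 CPM in NK-depleted *Ptgs-/-* tumors. No *Ptgs-/-* library of either kind reached the lowest *Ptgs+/+* value. Between NK-depleted *Ptgs-/-* and *Ptgs+/+* tumors, however, none of the 18 endothelial genes passed (median -0.33), where 12.5% of all genes did. In whole-tumor RNA, fewer cells of a type and less RNA of these genes per cell cannot be told apart. *Angpt2* had its highest likeness to *Cdh5*, the endothelial cadherin, among the genes tested (Pearson's r = 0.933 of log2 CPM over 10 libraries, which share the group structure), followed by *Sorl1* (0.921) and *Cyp1b1* (0.921).

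None of *Kdr*, *Flt1* and *Nrp1* passed in the fit of all libraries, and *Kdr* itself had a log2 fold change of 0.02. The endothelial sum was lower in *Ptgs-/-* tumors, so the ratios given next rise with a smaller divisor. Relative to the endothelial genes *Kdr* lay higher in *Ptgs-/-* tumors. Its counts were 0.0971, 0.0912, 0.101 and 0.0869 of the summed endothelial counts in *Ptgs+/+* tumors, 0.189, 0.167 and 0.140 in *Ptgs-/-* tumors, and 0.114, 0.102 and 0.138 in NK-depleted *Ptgs-/-* tumors. Both *Ptgs-/-* groups lay above all *Ptgs+/+* libraries. The highest ratio, 0.189, came from *Ptgs-/-* replicate 1. This library had the lowest *Kdr* level, 49.0 CPM, and the lowest endothelial sum, 259.7 CPM, of all libraries. The mean log2 ratio was higher by 0.80 in *Ptgs-/-* and by 0.32 in NK-depleted *Ptgs-/-* tumors, each with an exact permutation p of 0.057, the smallest possible, and an adjusted p of 0.143. *Ptgs-/-* tumors lay above the NK-depleted ones by 0.48 in all libraries (exact permutation p of 0.1, the smallest for 3 against 3, adjusted p = 0.190).

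*Nrp1* relative to the endothelial genes was 0.203, 0.177, 0.183 and 0.229 in *Ptgs+/+* and 0.548, 0.467 and 0.297 in *Ptgs-/-* tumors, a log2 difference of 1.10 with no overlap. In NK-depleted *Ptgs-/-* tumors it was 0.330, 0.283 and 0.283, a log2 difference of 0.59 from *Ptgs+/+* and again above all of them (both exact permutation p = 0.057, adjusted p = 0.143). *Flt1* relative to these genes was 0.534 in *Ptgs-/-* replicate 1 and 0.193 and 0.203 in the other 2, beside 0.160 to 0.201 in *Ptgs+/+*, so its mean log2 difference of 0.61 rests on 1 library and was 0.13 without it. In NK-depleted *Ptgs-/-* tumors the *Flt1* ratio was 0.304, 0.310 and 0.241, above all *Ptgs+/+* libraries, a log2 difference of 0.65 (exact permutation p = 0.057, adjusted p = 0.143) that ran from 0.59 to 0.77 with single libraries left out. *Flt1* and *Nrp1* are also carried by macrophages. Of 10 macrophage genes 7 rose in *Ptgs-/-* tumors, where 23.1% of all genes tested passed in either direction. The summed macrophage level was 1850 to 2185 CPM in *Ptgs+/+* and 2915 to 4522 CPM in *Ptgs-/-* tumors. The part of macrophages in these ratios was not tested.

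**Figure D3:**
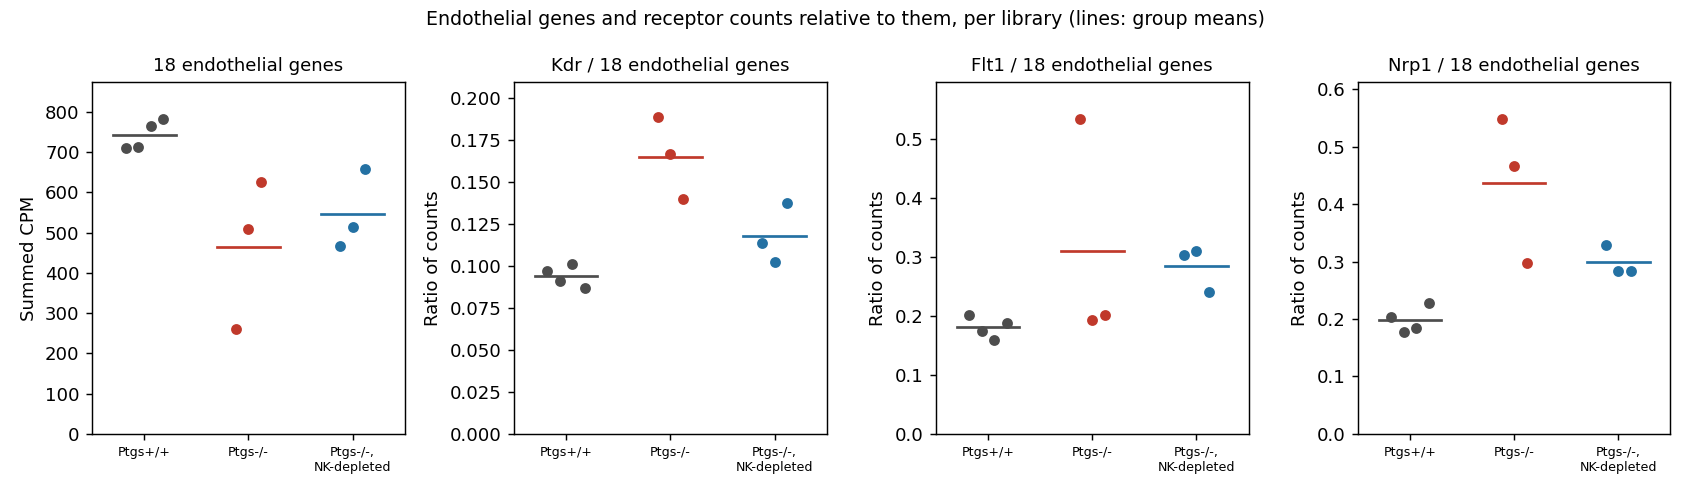
Summed CPM of 18 endothelial genes (first panel) and the counts of *Kdr*, *Flt1* and *Nrp1* divided by the summed counts of the same 18 genes (other panels), per library, with group means as lines and all axes from 0. The endothelial sum is highest in the 4 *Ptgs+/+* libraries, whereas the *Kdr* and *Nrp1* ratios are lowest there, and the *Flt1* ratio of *Ptgs-/-* replicate 1, 0.534, stands far above the rest.

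Other marker lists moved with the same contrast, in which 23.1% of all genes tested passed. The part of these lists in the values of *Vegfc* and *Pgf* was not tested. Of 7 fibroblast genes 4 rose, with summed levels of 7641 to 10630 CPM in *Ptgs+/+* and 13650 to 16800 CPM in *Ptgs-/-* tumors, and of 7 neutrophil genes tested 4 fell, from 427.2 to 666.2 CPM down to 107.7 to 161.5 CPM. Of 8 skeletal muscle genes 3 rose (median log2 fold change 1.89), with sums of 17.5 to 157.6 CPM and 102.9 to 365.6 CPM, and of 5 NK cell genes tested 4 rose (median 2.24), with sums of 14.1 to 31.9 CPM and 61.1 to 130.2 CPM. A single gene passed, downward, in each of the pericyte and keratinocyte lists. Of 6 adipocyte genes none passed, with sums of 194.8 to 782.3 CPM in *Ptgs+/+* and 47.9, 263.7 and 683.3 CPM in *Ptgs-/-* tumors. Of 4 lymphatic genes tested none passed, and their median log2 fold change was 0.69. Their sum, mostly *Pdpn*, was 303.5 to 425.1 CPM in *Ptgs+/+* and 333.4 to 519.7 CPM in *Ptgs-/-* tumors. *Prox1* (log2 fold change 1.03, adjusted p = 0.320) and *Lyve1* (0.93, adjusted p = 0.147, both by edgeR) overlapped between the groups, and *Mmrn1* was at or near 0. For both, the difference rests largely on 1 *Ptgs-/-* library. *Prox1* reached 8.28 CPM there, beside group medians of 1.46 CPM in *Ptgs-/-* and 1.46 CPM in *Ptgs+/+* tumors. *Lyve1* reached 213.4 CPM, beside medians of 63.8 and 57.5 CPM.

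The second comparison asked what the NK cells contribute, by setting *Ptgs-/-* tumors against NK-depleted *Ptgs-/-* tumors. None of the 10 genes passed in edgeR's quasi-likelihood test or in DESeq2, where 1.44% of all genes did by edgeR (1.15% by the stricter call, which none of the 10 met). The smallest p of the 10 was that of *Flt1* (unadjusted p = 0.0157, adjusted p = 0.289 by edgeR). *Flt1* was lower in all 3 *Ptgs-/-* libraries than in the 141.7, 159.7 and 158.6 CPM of NK-depleted tumors. Its log2 fold change was -0.37 (SE 0.13, 95% interval -0.65 to -0.08). When *Ptgs-/-* replicate 1 and *Ptgs+/+* replicate 3 were left out it was -0.47 and its adjusted p 0.0475. That alternative was chosen after seeing the data and was the only 1 of 21 in which *Flt1* passed. For *Vegfc* the difference was -0.12 (95% interval -1.16 to 0.92), for *Pgf* 0.16 (-0.39 to 0.71) and for *Vegfa* 0.29 (-0.26 to 0.84). The interval of *Vegfc* is wide, and a change within it was not detectable with 3 libraries a group. Skeletal muscle genes set the NK-depleted tumors apart: 7 of 8 were lower in *Ptgs-/-* tumors, with sums of 102.9 to 365.6 CPM against 2242 to 5288 CPM, and the part of this tissue in the values above was not tested.

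The third comparison, of NK-depleted *Ptgs-/-* tumors with *Ptgs+/+* tumors, uses the same 4 control libraries as the first. Again 2 of 10 genes passed, against 12.5% of all genes, and *Vegfc* met the stricter call (2.71% of all genes). The log2 fold change of *Vegfc* was 1.81 (SE 0.47, adjusted p = 0.0278) and that of *Pgf* was -1.25 (SE 0.23, adjusted p = 0.00529), by edgeR. *Vegfc* no longer passed without *Ptgs+/+* replicate 2 or without any one of the 3 NK-depleted libraries, with adjusted p up to 0.106 and log2 fold changes from 1.60 to 1.97 in these fits. With the experiment code as a term it was 1.76 and did not pass either (adjusted p = 0.0548). *Vegfa* (0.34, 95% interval -0.18 to 0.85), *Flt1* (0.16, -0.10 to 0.43), *Nrp1* (0.10, -0.26 to 0.47), *Kdr* (-0.13, -0.60 to 0.35) and *Angpt2* (-0.23, -0.67 to 0.22) did not pass. All 8 skeletal muscle genes rose in this comparison, with a median log2 fold change of 5.52. Their sums were 17.5 to 157.6 CPM in *Ptgs+/+* and 2242 to 5288 CPM in NK-depleted *Ptgs-/-* tumors. The part of muscle tissue in the values of this comparison was not tested.

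Of 13 further ligands, receptors and processing genes of these systems, 11 were tested. In *Ptgs-/-* against *Ptgs+/+* tumors 2 rose and 4 fell, where 23.1% of all genes tested passed, with a median log2 fold change of -0.38. *Tie1*, the endothelial partner of TIE2, fell from 6.88 ± 0.58 CPM (SD, n = 4) to 3.52 ± 1.28 CPM (SD, n = 3; log2 fold change -1.01, adjusted p = 0.0124 by edgeR), and *Ptprb*, the phosphatase that restrains TIE2, fell by 0.98 (adjusted p = 0.0152 by edgeR). *Tek* itself was 8.51 ± 2.16 CPM and 7.46 ± 1.49 CPM and did not pass (log2 fold change -0.24, 95% interval -0.81 to 0.33). *Nrp2*, a co-receptor for VEGF-C, fell by 0.59 and the repulsive ligand *Sema3f* by 0.89, while *Sema3c* rose by 0.90. *Plxnd1*, a semaphorin receptor, rose by 0.45. *Angpt4*, an angiopoietin, lay between 0.103 and 0.732 CPM in *Ptgs+/+* tumors, partly below the floor of 3 counts. In *Ptgs-/-* tumors it had 0.931 to 1.47 CPM, above all *Ptgs+/+* libraries, and did not pass (log2 fold change 1.40, adjusted p = 0.0551 by edgeR). It rose in NK-depleted *Ptgs-/-* tumors (0.963 to 2.12 CPM, adjusted p = 0.0268 by edgeR), the 1 gene of this list that passed in that comparison, where 12.5% of all genes did. None of the 11 passed between the 2 *Ptgs-/-* groups.

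Of 14 genes known as targets of VEGF and angiopoietin signalling or as tip cell genes, none rose and 5 fell in *Ptgs-/-* against *Ptgs+/+* tumors (median -0.47): the apelin receptor *Aplnr* (-1.26, adjusted p = 0.00531), *Hey1* (-0.81), *Plaur* (-0.97), *Notch4* (-0.73) and *Adm* (-1.06, adjusted p = 0.0412, all by edgeR), the last also being hypoxia-responsive. *Aplnr* and *Adm* also fell in NK-depleted *Ptgs-/-* tumors, by 0.87 and 1.34. Over all genes tested, 23.1% passed between *Ptgs-/-* and *Ptgs+/+* tumors. None of the 14 passed between the 2 *Ptgs-/-* groups, where 1.44% of all genes did. These falls occurred beside the lower endothelial sum given above, whose part in them was not tested.

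Angiogenesis inhibitors moved both ways. Of 10 tested, 5 rose and 3 fell in *Ptgs-/-* against *Ptgs+/+* tumors, where 23.1% of all genes tested passed. *Thbs1*, encoding thrombospondin-1, had 58.8 to 119.6 CPM in *Ptgs+/+* tumors and 17.2 to 23.1 CPM in *Ptgs-/-* tumors (log2 fold change -2.25, adjusted p = 9.71e-05 by edgeR), and 18.3 to 23.3 CPM in the NK-depleted ones. *Col18a1*, whose product holds endostatin, fell by 1.67 and *Pf4* by 0.80. The angiostatic chemokine *Cxcl9*, an interferon-γ target, rose from 1.64 to 4.48 CPM up to 23.8 to 44.1 CPM (log2 fold change 3.44, adjusted p = 0.000101 by edgeR), and *Thbs2* rose by 0.95 and *Timp3* by 1.30. In NK-depleted *Ptgs-/-* tumors *Cxcl9* was 7.28 to 12.5 CPM, and it was the 1 inhibitor that differed between the *Ptgs-/-* groups (log2 fold change 1.63, adjusted p = 0.0386 by edgeR). Against *Ptgs+/+*, 1 inhibitor rose and 3 fell in NK-depleted *Ptgs-/-* tumors, where 12.5% of all genes passed.

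The hypoxia list pools genes of the oxygen-sensing pathway with targets of the hypoxia-inducible factors. Of 18, 4 rose and 3 fell in *Ptgs-/-* against *Ptgs+/+* tumors (median 0.26), where 23.1% of all genes tested passed. The 3 that fell, *Hif1a*, *Epas1* and *Egln2*, belong to the pathway itself, and no target in the list passed downward. The hypoxia-responsive *Adm*, which was placed in the list of targets and tip cell genes above, did fall (-1.06, adjusted p = 0.0412 by edgeR). *Ndrg1* (1.07, adjusted p = 0.0145), *Ankrd37* (1.03, adjusted p = 0.0460) and *Pdk1* (0.78, adjusted p = 0.0435), targets of hypoxia-inducible factors, rose, as did *Vhl* (0.34), while the genes of the factors themselves, *Hif1a* (-0.62, adjusted p = 0.00121) and *Epas1* (-1.12, adjusted p = 0.0266, all by edgeR), fell. *Ankrd37* overlapped between the groups, with 36.47, 36.83 and 74.96 CPM in *Ptgs-/-* tumors beside at most 37.04 CPM in *Ptgs+/+* tumors. *Pdk1* had 88.56, 91.64 and 162 CPM, beside at most 86 CPM. *Ndrg1* had 318.5, 338 and 601.2 CPM, beside at most 244.9 CPM. For each of these targets, the highest *Ptgs-/-* library lay far above the others. *Ptgs-/-* replicate 1, the library with the most *Vegfa*, was highest for 11 of the 18. *Ptgs+/+* replicate 2, the library with the least *Vegfa*, was lowest for 11. The genes whose levels were most like that of *Vegfa* over the 10 libraries were *Aox1* (Pearson's r = 0.968), *Rxylt1* (0.960) and *Kdm3a* (0.951), the last a histone demethylase induced by low oxygen, and for *Kdr* they were *n-R5-8s1* (0.911), *Dop1a* (0.905) and *Dgkh* (0.904). These correlations run over libraries that share the group structure. The part of low oxygen in the values of *Vegfa* was not tested. In NK-depleted *Ptgs-/-* tumors *Hif1a* fell (-0.71) and *Vhl* rose (0.33) against *Ptgs+/+*, and none of the 18 passed between the *Ptgs-/-* groups. *Ldha* and *Pgk1* have near-identical copies in the genome, and their counts are uncertain.

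**Figure D4:**
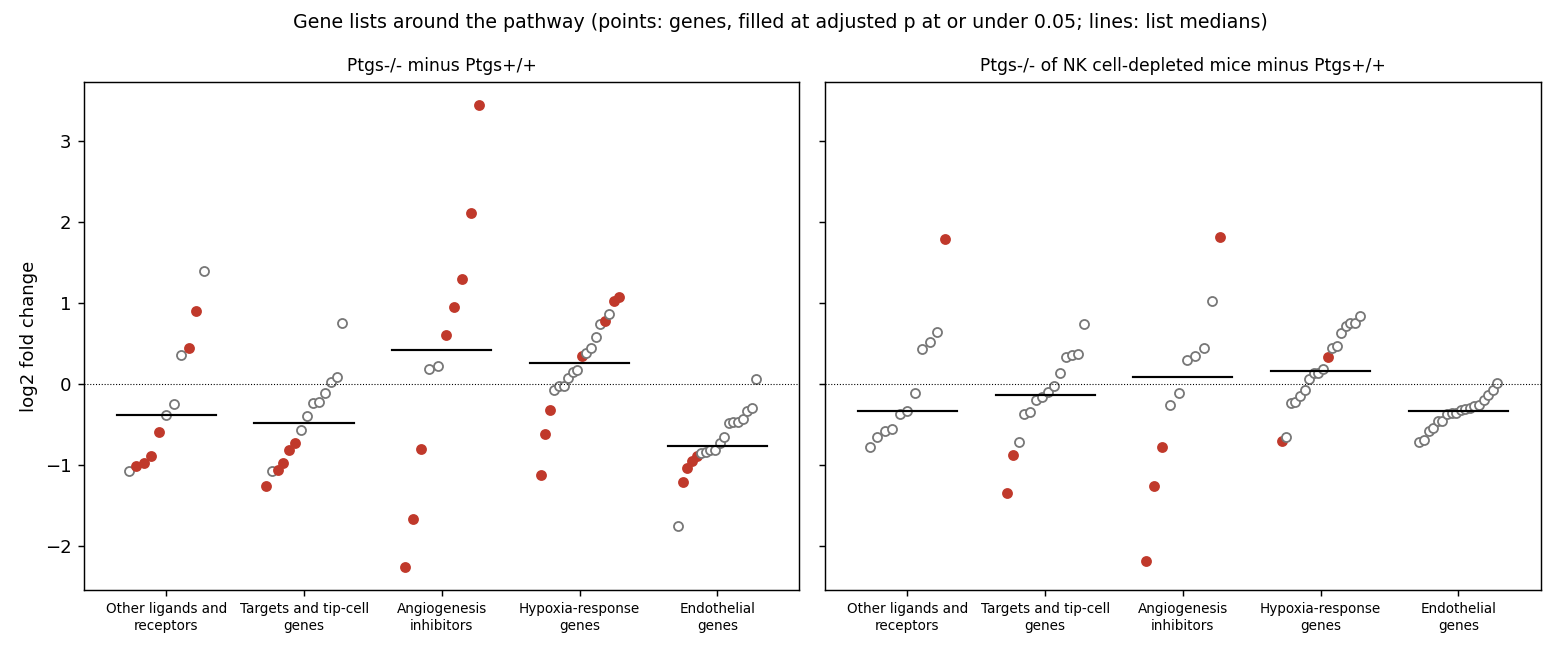
Log2 fold changes (vertical axis) of the tested genes of 5 lists (columns) in both comparisons with *Ptgs+/+* tumors, with list medians as lines and points filled where the adjusted p was at or under 0.05. In *Ptgs-/-* tumors the endothelial list has its median at -0.77 and the hypoxia list at 0.26, and the inhibitors reach from -2.25 (*Thbs1*) to 3.44 (*Cxcl9*). The hypoxia list pools genes of the oxygen-sensing pathway with targets.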

How the data were processed

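RNA of 10 tumors was sequenced as QuantSeq 3′ libraries. The authors used STAR on trimmed reads (genome GRCm38) and featureCounts to assign them to genes. They deposited raw counts, with a column for each tumor and no normalization. Use of strand and of reads mapping to several genes is not given in the sources used here. Groups came from the sample titles, and no column was left out. GENCODE M21 named 45143 of 45706 identifiers and gave no name to 563.

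Tests used edgeR 4.0.16 (R 4.3.3, limma 3.58.1): filterByExpr kept 14550 genes, TMM scaled the libraries, and a quasi-likelihood fit of all 10 libraries compared the 3 groups, with Benjamini-Hochberg adjustment over all genes. The SE is the log2 fold change divided by the root of F. Ratios were log2 of counts plus 0.5 and were compared by exact two-sided permutation tests. The scripts were tested on simulated data. Named were the 10 genes, up to 6 passing genes per list by smallest adjusted p, *Tek*, *Tie1* and the 3 genes most like *Vegfa*, *Kdr* and *Angpt2*. *Plxnd1* and the endothelial genes named fall outside this rule and were chosen after their values were seen. Genes and lists were chosen with earlier results of these data known. Alternatives were DESeq2 1.42.0, other scalings, filters and tests, the experiment code, a replicate block and leaving out libraries.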

Additional observations from a re-analysis of the deposited data

Results flagged for a closer look

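In the *Ptgs+/+* group, *Tie1* had 7.742 CPM in replicate 4 against 6.50 CPM at the lowest, and its gap to the next library was large for the range of the 4 values. Of 19 gene and ratio sets of 4 libraries checked in this way, this was the 1 that stood out, and chance gives about 1 in 20. The value is higher, not lower, than those of its group, and all *Ptgs-/-* libraries lay below the *Ptgs+/+* range.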

How the results depend on the processing

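*Pgf* passed in both comparisons with *Ptgs+/+* tumors under every one of the 21 alternatives. *Vegfc* could not be tested with at least 10 counts required in every library. The number of the 10 genes that passed between *Ptgs-/-* and *Ptgs+/+* tumors, 2 in the fit reported, was 4 with DESeq2, 4 with the likelihood ratio test, 3 with no filter (*Vegfa* added), 3 with the experiment code as a term and 3 in the first code (*Angpt2* added), 3 without *Ptgs-/-* replicate 1 and *Ptgs+/+* replicate 3 (*Flt1* added), 1 with at least 10 counts in every library, 1 with only the groups compared, 1 with the stricter call, and between 1 and 3 when single libraries were left out. Between NK-depleted *Ptgs-/-* and *Ptgs+/+* tumors it was 1 with at least 10 counts, 1 with the stricter call, 1 with the experiment code as a term, where *Vegfc* was lost, and 1 to 2 when single libraries were left out. Between the *Ptgs-/-* groups it was 0, and 1 (*Flt1*) without *Ptgs-/-* replicate 1 and *Ptgs+/+* replicate 3. The cause of these shifts was not tested, other than that fewer genes or libraries entered some fits. With label number as a replicate block, the counts were 2, 0 and 2, and no call of a member changed. Deviations of same-numbered libraries correlated at 0.082, 0.043 and -0.003 between the *Ptgs-/-* groups, at 0.387, -0.223, 0.06 and 0.271 between *Ptgs-/-* and *Ptgs+/+*, and at -0.078, 0.187, -0.296 and 0.169 in the other comparison. Not every library correlated best with its own number. Some of these pairs join libraries of different experiment codes, and so few, mixed values cannot decide whether the numbers pair the samples.

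Values near 0 changed sign. Between *Ptgs-/-* and *Ptgs+/+* tumors *Kdr* was -0.0913 in the first experiment code, -0.0205 with the replicate block and -0.0915 to 0.23 with single libraries left out. *Flt4* was 0.0195 in the first code and -0.45 to 0.12 with libraries left out singly (0.18 without the pair of libraries). *Angpt1* was 0.04 with library size alone, 0.0272 with upper-quartile factors, 0.0013 with no filter, 0.0267 with at least 10 counts, -0.21 to 0.12 with libraries left out (0.0044 without the pair). Between the *Ptgs-/-* groups *Vegfc* was 0.16 and *Flt4* 0.0167 in the first code. With libraries left out, *Vegfa* ran from -0.0513 to 0.47, *Vegfc* from -0.65 to 0.16, *Pgf* from -0.089 to 0.32, *Flt4* from -0.41 to 0.15 and *Nrp1* from -7e-04 to 0.35, and without the pair *Vegfa* was -0.0404, *Pgf* -0.08 and *Flt4* 0.16. Between NK-depleted *Ptgs-/-* tumors and *Ptgs+/+*, *Flt4* was 0.0050 with library size alone, 0.0029 in the first code, 0.0444 with the replicate block, -0.18 to 0.15 with libraries left out and 0.0224 without the pair, *Vegfb* ran from -0.0548 to 0.12 and *Kdr* from -0.42 to 3e-04. Of the log2 ratios, that of *Flt1* to the endothelial genes between the *Ptgs-/-* groups was 0.18 in the first code and -0.52 to 0.22 with libraries left out, that of *Angpt2* to *Angpt1* there ran from -0.31 to 0.0695, and that of *Flt1* to *Kdr* between *Ptgs-/-* and *Ptgs+/+* from -0.57 to 0.077.

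Over all genes, calls between the *Ptgs-/-* groups moved most: 209 as reported, 383 with DESeq2, 403 with the likelihood ratio test, 408 with no filter, 42 with at least 10 counts, 93 in the first code, 694 without the pair and 106 to 411 with single libraries left out. Against *Ptgs+/+*, leaving out single libraries gave 2062 to 3881 calls for *Ptgs-/-* and 909 to 2116 for NK-depleted *Ptgs-/-* tumors. *Vegfc* and *Flt4*, with 6 to 110 counts a library, carry the widest intervals.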
